A study of Mus musculus with 12 samples.

Results

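The genes described here end the response of a rod to light and reset its calcium and cyclic GMP. They were taken from the tables by gene name: the rhodopsin kinase gene Grk1 and its calcium sensor Rcvrn, the 3 genes of the complex that switches transducin off (Rgs9, Gnb5 and Rgs9bp), the 2 retinal guanylate cyclases (Gucy2e and Gucy2f), their 2 activating proteins (Guca1a and Guca1b), and the outer segment calcium exchanger Slc24a1. All 10 were found, each in 1 row of its own, among 56748 rows of scaled counts and 55372 rows of TPM (the share of a library taken by a transcript, corrected for its length and scaled to a common total). Retinas came from 2-month-old littermate mice of 2 genotypes. Control mice were RiboTag;i75-Rod-Cre with Abca4+/+, and knockout mice (Abca4Ko) were RiboTag;i75-Rod-Cre with Abca4-/-. Both genotypes thus carried the RiboTag allele, a tagged ribosomal protein, and a Cre driven by the rhodopsin promoter (i75Cre), which turns the tag on in rods. From each genotype, 3 libraries were made from messages on the tagged ribosomes (rod TRAP) and 3 from the lysate before the pull-down (retina), 12 libraries in 4 groups. ABCA4 is the outer segment transporter that clears retinal from disc membranes.

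Light activates rhodopsin, which activates transducin and then a phosphodiesterase that destroys cyclic GMP, so cation channels close and calcium falls. Recovery needs every active step to be undone: GRK1 phosphorylates rhodopsin so that arrestin can bind it, and the RGS9 complex makes transducin hydrolyse its GTP. The fall in calcium speeds recovery, because calcium-free recoverin lets go of GRK1 and calcium-free activating proteins turn the cyclases on, while the exchanger goes on removing calcium. Cones use several of the same genes.

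Each library had been scaled to a total shared by its fraction. Rod TRAP totals lay between 17096515 and 17097707 scaled counts, and those of retina between 17860761 and 17862326. The step between low values gave a depth of 14.8 to 23.2 M reads for 5 retina libraries, and none could be determined for the other 7. Abca4 had 153 to 366 scaled counts in the libraries labelled Abca4Ko replicates 1 and 2, at most 0.958% of the control mean, but 13156 and 8124 in rod TRAP and retina of the libraries labelled replicate 3, which are 23.5% and 21.3%. Replicate 3 was kept under its label, and results are also given without it. The rod label of the pull-down held: the rod transcription factor genes Nrl and Nr2e3 and the arrestin gene Sag were called higher in rod TRAP in both genotypes, at 1.03, 1.35 and 1.31 on the log2 scale in control and 1.12, 1.27 and 1.38 in Abca4Ko (limma). Control retina replicate 3 stood apart by transcript length, with the longest of 4 equal length classes of genes 0.51 lower than the shortest on the log2 scale, relative to the mean of its fraction. Abca4Ko retina replicate 3 stood apart the other way, at 0.50.

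Rcvrn was the most abundant of the 10 genes and Gucy2f the least in every group. In control rod TRAP, Rcvrn had 5772 ± 17.8 TPM (SD, n = 3 here and in each group that follows) and ranked 13 among 11685 genes with at least 1 TPM. Gucy2f had 160.5 ± 6.20 TPM there and ranked 850. Between them, in falling order, came Guca1a at 4189 ± 351, Guca1b at 3766 ± 163, Slc24a1 at 1708 ± 92.6, Gnb5 at 1432 ± 88.7, Rgs9 at 1092 ± 81.4, Grk1 at 1087 ± 81.6, Rgs9bp at 550.4 ± 24.3 and Gucy2e at 487 ± 21.4 TPM. Neighbours in this order did not overlap, except Guca1a with Guca1b and Rgs9 with Grk1. In TPM the genes for small calcium-binding proteins were thus the highest and the cyclases the lowest. The exchanger and the subunits of the transducin switch lay in the middle.

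In control retina the order of the first 3 genes was the same, with Rcvrn at 4164 ± 439, Guca1a at 3200 ± 368 and Guca1b at 2299 ± 89.2 TPM, and none of these overlapped. Slc24a1, Gucy2e, Rgs9 and Rgs9bp followed Gnb5 and Grk1 at 274.6 ± 89.8, 224 ± 40.6, 195 ± 73.9 and 166 ± 67.3 TPM, and neighbours among these 4 overlapped. Gucy2f had 14.2 ± 4.23 TPM and ranked 7124 among 14813 genes. Slc24a1 therefore stood above Gnb5 and Grk1 in rod TRAP and below both in retina. The 10 genes together took 19566 to 22070 TPM in the 6 rod TRAP libraries and 9953 to 13419 in the 6 retina libraries.

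The level of Guca1a differed between the deposited tables. Its scaled counts per TPM, divided by its annotated transcript length, were 0.0914 of the median gene's, and 1.30% of 10039 genes were lower on that measure. The other 9 genes lay between 0.83 (Rgs9) and 1.27 (Grk1). In scaled counts per 1000 bases of transcript, Guca1a had 2459 in control rod TRAP against 30060 for Guca1b. Its place beside Guca1b thus holds in TPM and not in the other table, where it lay between the cyclases Gucy2e (3860) and Gucy2f (1494). Comparisons of Guca1a with itself between libraries do not use the length.

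**Figure D1:**
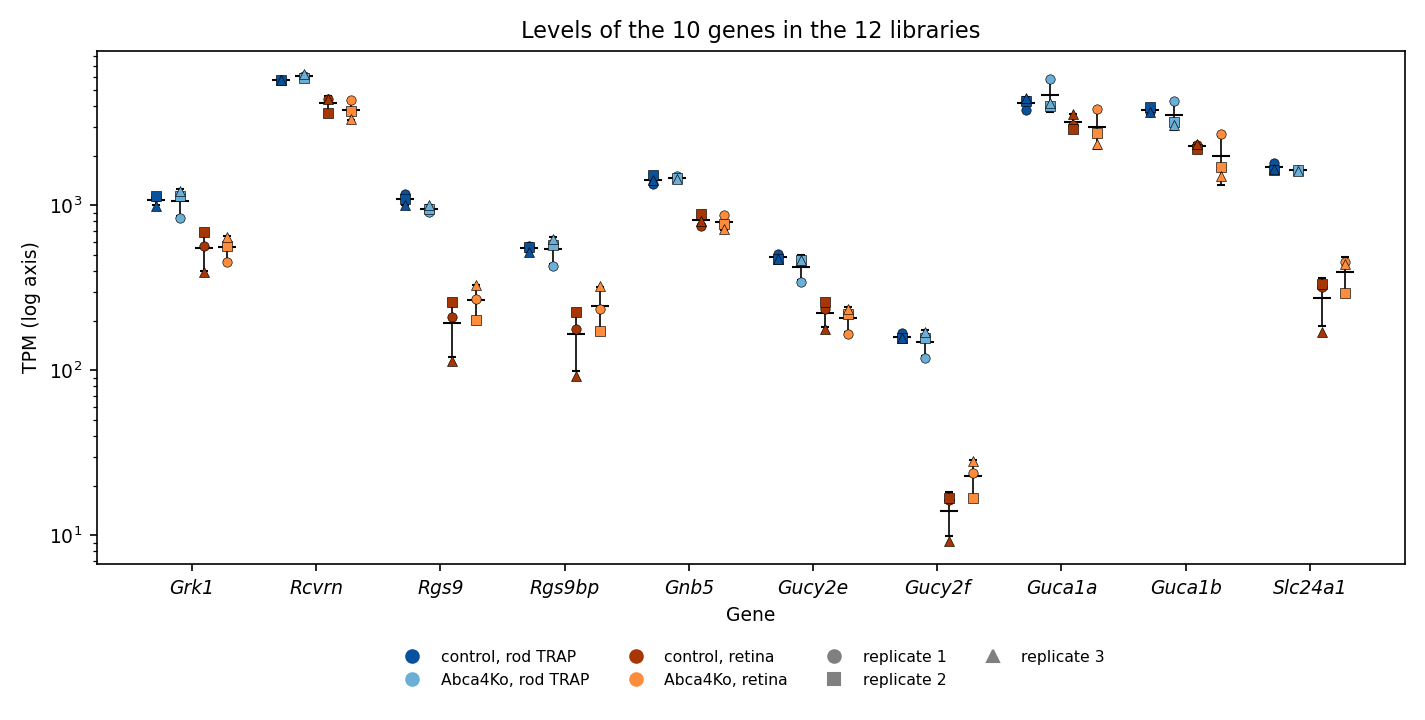
Level of each of the 10 genes in TPM (log axis) in the 12 libraries. Points are libraries, with the shape giving the replicate and the colour the group. Horizontal marks are means and vertical bars SD over 3 libraries. For each gene the 6 rod TRAP libraries lie above the 6 retina libraries, except that the lowest Guca1a value in rod TRAP (3792 TPM) is under the highest in retina (3868 TPM). The gap is widest for Gucy2f.

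CRX and NRL, transcription factors of photoreceptors, bind short sequences near the starts of many rod genes, and the stretch before the start was therefore read where a sequence was at hand. RefSeq promoter sequences (build GRCm38.p6) were matched for 7 of the 10 genes, and not for Rgs9bp, Guca1b or Rcvrn. The letters TAATCC (or GGATTA, the same site on the other strand) are the core of the CRX site, and TGCTGA (or TCAGCA) is taken from the NRL site. Within 250 bases before the start, 4 of the 7 held the CRX letters and 1 held the NRL letters (Rgs9, at 147 bases). Of 32851 promoters, 6.25% held the CRX letters and 16.1% the NRL letters in a window of that length. Grk1 and Slc24a1 held neither. The 100 bases before the start are shown for the 4 genes with the CRX letters, which stand in capitals, read 5′ to 3′ on the strand of the gene. Gucy2f lies on the minus strand at chrX:142196937-142197036, Gucy2e on the minus strand at chr11:69237023-69237122, Guca1a on the minus strand at chr17:47400607-47400706 and Gnb5 on the plus strand at chr9:75306188-75306287.
Gucy2f: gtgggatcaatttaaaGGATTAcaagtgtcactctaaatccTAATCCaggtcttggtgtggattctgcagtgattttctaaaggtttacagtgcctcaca
Gucy2e: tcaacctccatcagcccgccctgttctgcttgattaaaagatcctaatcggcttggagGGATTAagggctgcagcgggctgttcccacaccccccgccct
Guca1a: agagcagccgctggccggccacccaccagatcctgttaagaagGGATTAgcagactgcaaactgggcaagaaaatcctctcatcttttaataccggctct
Gnb5: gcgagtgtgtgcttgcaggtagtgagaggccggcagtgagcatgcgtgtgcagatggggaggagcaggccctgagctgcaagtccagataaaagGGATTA
Gucy2f was the only one of the 7 with 2 such matches, starting 84 and 59 bases before the start on opposite strands. In the other 3, the match began 57 (Guca1a), 42 (Gucy2e) and 6 bases (Gnb5) before it. A match of 6 letters is a description of the sequence and not a binding site. Gucy2f, with the largest fraction change given next, and Guca1a, with the smallest, both held it. A link between the letters and that change was not tested.

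All 10 genes were called higher in control rod TRAP than in control retina, with no overlap between the groups, by 0.63 (Guca1a) to 3.84 (Gucy2f) on the log2 scale. The steps of the cascade did not change alike. One cyclase, the exchanger and the catalytic and anchoring subunits of the transducin switch rose most. The calcium-binding proteins had the lowest values, but with the trend of each library with transcript length removed (an alternative chosen after seeing the data) Rcvrn (1.06) and Guca1b (1.33) stood above Grk1 (0.89) and Gucy2e (0.93). In this comparison 36.6% of the 16286 genes tested were called higher (limma, adjusted p under 0.05), and 75.4% were called in either direction, so a call alone was common. Groups lay apart in that direction for 39.1% of genes. The median change of the 10 genes was 1.40, and that of all genes −0.03.

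Among the cyclases, which make cyclic GMP, Gucy2f had 168, 156 and 157 TPM in control rod TRAP replicates 1 to 3 and 16.3, 16.9 and 9.30 TPM in control retina. The fractions were far apart, 11.3-fold in mean TPM. The log2 fold change of scaled counts relative to the median gene was 3.84 (limma: adjusted p = 9.52e-10, SE 0.17). Gucy2e had 512, 474 and 475 TPM in control rod TRAP and 235, 259 and 180 TPM in control retina. The groups did not overlap, but the change was smaller, at 1.45 (limma: adjusted p = 1.88e-07, SE 0.12) and 2.17-fold in mean TPM. Of the other membrane guanylate cyclases in the list, 2 were abundant enough to test. Npr2, a receptor for C-type natriuretic peptide, was lower by 4.43, while Npr1 had a log2 fold change of −0.40 and did not pass (limma adjusted p = 0.0948).

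Slc24a1, which exchanges sodium for calcium and potassium in the outer segment membrane, had 1814, 1641 and 1670 TPM in control rod TRAP and 319, 334 and 171 TPM in control retina. It rose by 2.99 on the log2 scale (limma: adjusted p = 1.44e-08, SE 0.19). Of its 4 relatives, Slc24a3, Slc24a4 and the cone exchanger Slc24a2 were called lower at −6.05, −2.38 and −0.86. The deposited tables went opposite ways for Slc24a5, an exchanger known from pigment cells: it was called higher in scaled counts at 1.08, but had 0.10, 0.20 and 0.90 TPM in control rod TRAP against 5.0, 7.2 and 13.2 TPM in control retina, so no direction is drawn for it. Slc24a1 was thus set apart from the cone exchanger by direction. Under the scaling of the authors alone Slc24a5 was no longer called.

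In the transducin switch, RGS9 carries the catalytic activity, GNB5 binds and stabilises it and RGS9BP anchors the complex to the disc membrane. Rgs9 had 1168, 1101 and 1006 TPM in control rod TRAP and 210, 260 and 114 TPM in control retina, a log2 fold change of 2.84 (limma: adjusted p = 4.41e-08, SE 0.20). Rgs9bp had 565, 564 and 522 TPM against 180, 226 and 93.1, a log2 fold change of 2.13 (limma: adjusted p = 1.04e-06, SE 0.21). Both genes were low in control retina replicate 3, and neither overlapped between the fractions. Gnb5 had 1344, 1521 and 1430 TPM against 754, 883 and 801, and changed less, by 1.14 (limma: adjusted p = 8.98e-07, SE 0.11). The close relatives Rgs6, Rgs7 and Rgs11 and the anchor Rgs7bp, which serve other neurons, were all called lower, with a median of −2.78. Of the other beta subunits, Gnb1, the partner of rod transducin, was called higher at 1.62, and Gnb2, Gnb3 (the cone subunit) and Gnb4 were called lower at −2.26, −0.68 and −0.99.

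Grk1 had 1120, 1146 and 994 TPM in control rod TRAP and 565, 691 and 397 TPM in control retina, a log2 fold change of 1.35 (limma: adjusted p = 1.80e-06, SE 0.14). Its calcium sensor Rcvrn had 5791, 5755 and 5771 TPM against 4402, 3657 and 4433, and a log2 fold change of 0.80 (limma: adjusted p = 2.24e-04, SE 0.14). The kinase had the larger value of the pair here, but with a length trend removed the order turned, to 0.89 for Grk1 and 1.06 for Rcvrn in control and 0.97 and 1.15 in Abca4Ko. Of the 5 other kinases of the family, Grk4 and Grk5 were called higher at 1.62 and 0.62 and Grk3, Grk2 and Grk6 were called lower at −4.29, −1.51 and −1.22, but Grk5 turned to lower under the scaling of the authors alone. Of 6 other neuronal calcium sensors, relatives of recoverin, 5 were called lower, with a median of −4.80 over the 6. Hpcal1 did not pass, with 0.32 (limma adjusted p = 0.0567), and was lower under the scaling of the authors alone.

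Guca1b had 3662, 3954 and 3682 TPM in control rod TRAP and 2323, 2201 and 2374 TPM in control retina, and rose by 1.03 (limma: adjusted p = 6.84e-06, SE 0.12). Guca1a had 3792, 4314 and 4460 TPM against 3094, 2896 and 3609, with a log2 fold change of 0.63 (limma: adjusted p = 0.00236, SE 0.15). The groups did not overlap for either gene. This was the smallest change among the 10 genes and depended on the scaling. The scaling of the authors alone moved the median of all genes to −0.62. Guca1a then stood at −0.01 and Rcvrn at 0.15, neither past the threshold. So 8 of 10 genes were called, where 3415 of all 16286 genes tested were called higher. The share of called genes that were higher was 26.3% under that scaling and 48.6% in the comparison above. In a fit with all 12 libraries Guca1a was also not called, at 0.54, where 5458 of 17273 genes tested were called higher.

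In Abca4Ko mice all 10 genes were again called higher in rod TRAP than in retina, where 30.4% of 16036 genes tested were called higher and 64.1% in either direction. Their groups did not overlap, as for 33.7% of all genes in that direction. The order of the larger changes was the same. Gucy2f stood at 2.95 (limma: adjusted p = 9.91e-07, SE 0.22), Slc24a1 at 2.31 (SE 0.25), Rgs9 at 2.09 (SE 0.21), Rgs9bp at 1.43 (SE 0.24) and Gucy2e at 1.28 (SE 0.17). The other 5 lay between 0.90 (Guca1a, SE 0.26, limma adjusted p = 0.0114) and 1.20 (Grk1, SE 0.19). The median was 1.24, and that of all genes 0.00.

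Some of these calls were lost when 1 library was left out, which also leaves fewer libraries to test. Without Abca4Ko retina replicate 3, one of the libraries that kept Abca4 reads, 4239 of 13405 genes tested were called higher. Of the 10 genes 8 were called, and Guca1a and Guca1b were not. Both were also lost without Abca4Ko retina replicate 2, where 4140 of 13396 genes tested were called higher. Guca1a then stood at 0.86 and Guca1b at 0.99. Guca1b was lost without Abca4Ko rod TRAP replicate 1, at 0.90, where 4629 of 15936 genes tested were called higher. Under the scaling of the authors alone 7 were called, where 2282 of 16036 genes tested were called higher. Rcvrn, Guca1a and Guca1b then stood at 0.40, 0.36 and 0.57 and were not past the threshold. The share of called genes that were higher moved from 47.4% to 22.6%. The 2 genotypes did not share libraries in these comparisons.

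**Figure D2:**
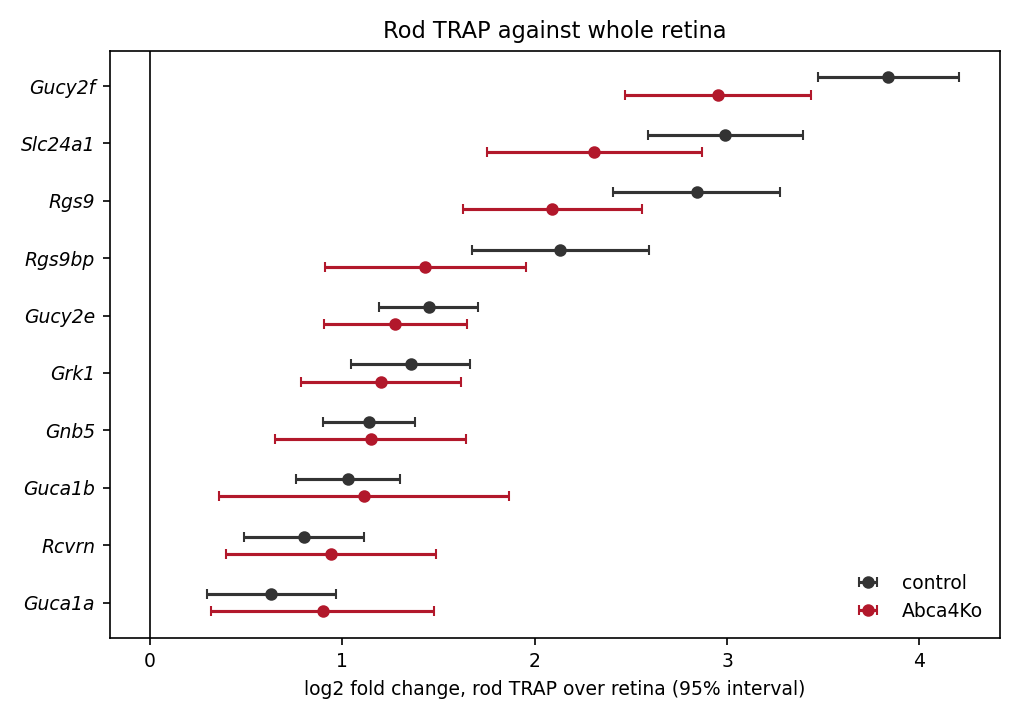
Log2 fold change of each gene, rod TRAP over retina, in control and Abca4Ko mice, with 95% intervals from limma. All 20 intervals lie above 0. Gucy2f has the largest change in both genotypes (3.84 and 2.95), and Guca1a the smallest (0.63 and 0.90).

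Markers of other retinal cells were lower in control rod TRAP: 7 of 7 cone, 6 of 6 Müller glia, 5 of 5 amacrine, 5 of 5 ganglion and 5 of 5 microglia markers were called lower, as were 5 of 6 bipolar markers, the exception being Prkca at 1.57. The cone markers summed to 523 to 749 TPM in rod TRAP and 1196 to 2114 in retina, and the Müller glia markers to 86.3 to 135 and 2576 to 4797. Bipolar markers summed to 70.9 to 91.0 and 560 to 1274, amacrine markers to 24.5 to 42.4 and 144 to 404, ganglion markers to 9.90 to 16.3 and 601 to 952, and microglia markers to 0.40 to 2.10 and 35.7 to 86.4. Of 3 horizontal cell markers tested 3 were called lower, with Onecut2 listed at 0 TPM and at 0 to 6 scaled counts in the 6 rod TRAP libraries. Of 4 vascular markers 3 were called lower, with Cdh5 listed at 0 TPM and at 0 to 1 scaled counts in the 6, and of 4 pigment epithelium markers 3. Of 11 cone phototransduction genes 10 were called lower, and Cngb3 was higher at 0.88, though not called under the scaling of the authors alone. In a library made from many cells, fewer cells of a type and less RNA per cell cannot be told apart. Rod TRAP and retina also differed in the RNA put into cDNA synthesis, 10 ng and 5 ng, and that difference and the pull-down cannot be told apart. The part of these markers in the changes of the 10 genes was not tested.

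Transcript length moved with the fraction as well. In control mice the median log2 fold change rose from −0.21 in the shortest length class to 0.31 in the longest. Gucy2e and Gucy2f (8331 and 8122 bases) and Grk1 (7431 bases) are among the longest genes here, and Guca1a (873 bases) and Rcvrn (1040 bases) the shortest. With the length trend removed, all 10 genes were still called in both genotypes. Of all genes tested, 6379 of 15609 in control and 5671 of 15375 in Abca4Ko were then called higher. Gucy2f, Slc24a1 and Rgs9 then stood at 3.33, 2.76 and 2.90 in control, and Grk1 and Gucy2e fell back to 0.89 and 0.93, below Rcvrn at 1.06.

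Pairs that work as partners were compared as ratios of TPM within a library, which no scaling between libraries can change. Of the 5 ratios, 4 differed between the fractions with the libraries treated as unpaired. Gucy2f gained on Gucy2e, Guca1b on Guca1a, and Rgs9 on both of its partners. As same-numbered pairs within a genotype, each of the 5 had a p and adjusted p of 0.0312 (exact test over 64 sign flips). That is the smallest p the flips can give. Across all 6 rod TRAP libraries the Gucy2f to Gucy2e ratio was 0.328 to 0.365, and across the 6 retina libraries 0.0518 to 0.143. The difference was 2.04 on the log2 scale (exact permutation test over 924 splits, against either side, p = 0.00216, adjusted over the 5 ratios p = 0.00361), and 0.00216 is the smallest p that this design can give. In the rod TRAP libraries Gucy2f thus stood at a nearly fixed share of Gucy2e, with an SD of 0.060 on the log2 scale. In retina the SD was 0.56, taken over libraries of both genotypes. By genotype, the retina ratio was 0.143, 0.0767 and 0.121 in Abca4Ko replicates 1 to 3 and 0.0693, 0.0654 and 0.0518 in control, which did not overlap. The exact permutation p was 0.1, the smallest that 3 against 3 libraries can give, so no call was possible. In rod TRAP the genotype p of Gucy2f to Gucy2e, Guca1b to Guca1a and Gnb5 to Rgs9 was also at that limit of 0.1.

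The Rgs9bp to Rgs9 ratio was 0.472 to 0.619 in rod TRAP and 0.815 to 0.991 in retina, a log2 difference of −0.71 (exact permutation p = 0.00216, adjusted p = 0.00361). The Gnb5 to Rgs9 ratio was 1.15 to 1.64 in rod TRAP and 2.21 to 7.01 in retina, a log2 difference of −1.36 (exact permutation p = 0.00216, adjusted p = 0.00361). Neither ratio overlapped between the fractions, and the highest Gnb5 to Rgs9 value was that of control retina replicate 3. In TPM the anchor was thus just below Rgs9 in retina and further below it in rod TRAP. In scaled counts per 1000 bases Rgs9bp had 1912 against 1549 for Rgs9 in control retina and 4868 against 6510 in control rod TRAP, so that its place relative to Rgs9 in retina depended on the table. The Guca1b to Guca1a ratio was 0.734 to 0.966 in rod TRAP and 0.624 to 0.760 in retina, a small difference of 0.26 (exact permutation p = 0.0130, adjusted p = 0.0162). The fractions overlapped over all 12 libraries and not within either genotype. In scaled counts, where Guca1a had another level, the difference was 0.30 (exact permutation, adjusted p = 0.0406).

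The Rcvrn to Grk1 ratio was 5.02 to 7.27 in rod TRAP and 5.17 to 11.2 in retina, with a log2 difference of −0.39 that did not pass (exact permutation p = 0.0887, adjusted p = 0.0887). Within rod TRAP all libraries but Abca4Ko replicate 1, at 7.27, lay between 5.02 and 5.81. Libraries of a genotype with the same number tended to deviate together in the 2 fractions, though their correlations overlapped those of libraries with other numbers. Same-numbered libraries were also compared as pairs. The ratio was lower in rod TRAP in 6 of 6 pairs, and with the 64 sign flips of the pairs the exact p was 0.0312, adjusted p = 0.0312, which is the smallest that they can give. The call of this ratio depended on the pairing. The direction is that of libraries not corrected for length: with a length trend removed the fold change of Rcvrn between fractions was above that of Grk1 in both genotypes.

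**Figure D3:**
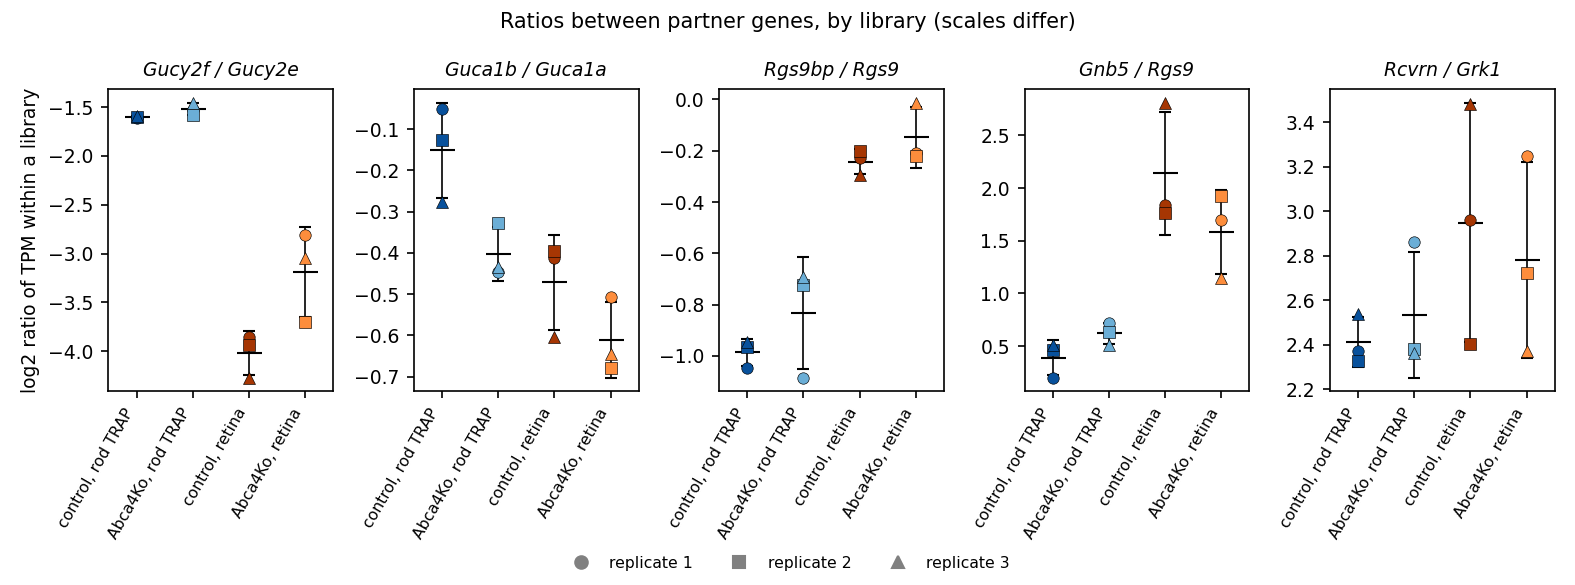
Log2 ratio of TPM between partner genes within each library, 1 panel per pair, with a vertical scale of its own in each. Points are libraries, with the shape giving the replicate and the colour the group. Horizontal marks are means and bars SD over 3 libraries. Gucy2f to Gucy2e separates the fractions most, and Rcvrn to Grk1 overlaps.

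Loss of ABCA4 was then examined within each fraction. In rod TRAP, 0 of 10 genes were called between Abca4Ko and control (limma), where 1.13% of 13104 genes tested were called. At an unadjusted p under 0.05 the count was also 0 of 10, against 10.4% of all genes. The log2 fold changes, Abca4Ko over control, ran from −0.16 (Gucy2e, 95% interval −0.34 to 0.02) to 0.31 (Guca1a, −0.06 to 0.68), and the median was 0.02. Of the other 8, the intervals were narrowest for Rgs9bp (−0.16 to 0.23) and Gucy2f (−0.25 to 0.13) and widest for Guca1b (−0.44 to 0.35).

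Gucy2e was the only one of the 10 whose groups did not overlap in rod TRAP, where 17.6% of all genes tested did not overlap. For 9.07% of all genes the lower values were those of Abca4Ko, as here. It had 25434, 29938 and 30825 scaled counts in Abca4Ko and 33025, 31462 and 31984 in control, and its limma adjusted p was 0.538. Abca4Ko replicate 1 was the lowest of these. The same library had the highest Guca1a, with 3395 scaled counts against 1957 to 2391 in the other 5 rod TRAP libraries, and the highest Guca1b, with 63945 against 41171 to 52438. In that library the longest length class stood 0.36 below the shortest. Without it, 1 of 10 genes was called, where 594 of 12936 genes tested were called, against 148 of 13104 with all libraries. That gene was Guca1b, which was −0.04 with all libraries and then stood at −0.29 (limma adjusted p = 0.00257). Without the library labelled Abca4Ko replicate 3, 0 of 10 were called, where 121 of 12943 genes tested were called. The changes of the 10 genes then ran from −0.19 to 0.41.

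In retina, 0 of 10 genes were called by genotype (limma), where 0.106% of 16964 genes tested were called. At an unadjusted p under 0.05 there was 1 of 10, Gucy2f, against 12.0% of all genes. The 4 highest changes were those of Gucy2f at 0.72 (95% interval 0.14 to 1.29, limma adjusted p = 0.3998), Rgs9bp at 0.62 (−0.06 to 1.30), Slc24a1 at 0.57 (−0.09 to 1.24) and Rgs9 at 0.52 (−0.11 to 1.14). The other 6 lay between −0.24 (Guca1b, −0.96 to 0.48) and 0.07 (Grk1, −0.39 to 0.54). The groups overlapped for all 10 genes, where 19.9% of all genes tested did not overlap. These intervals are wider than in rod TRAP, and changes of the size of 0.5 cannot be told from 0 here.

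The 4 genes with the higher values are those that rose most in rod TRAP, and they moved together across the retina libraries. In scaled counts Gucy2f had 2647, 1678 and 2601 in Abca4Ko replicates 1 to 3 and 1681, 1581 and 980 in control. Slc24a1 had 30686, 17849 and 25356 in Abca4Ko and 20299, 19054 and 10942 in control, and Rgs9 had 8278, 5566 and 8569 against 6053, 6735 and 3307. Control replicate 3 was the lowest library for each, and Abca4Ko replicate 2 lay within or near the range of the other control libraries. Rcvrn did not follow them, with 47892, 36873 and 30864 in Abca4Ko and 44993, 33947 and 45435 in control. Relative to the mean of the 6 retina libraries, control replicate 3 was lower by 0.80 (Gucy2f), 0.81 (Slc24a1), 0.85 (Rgs9) and 0.95 (Rgs9bp) on the log2 scale. It was higher by 0.24 to 0.36 for Rcvrn, Guca1b and Guca1a. Abca4Ko replicate 3 showed the reverse, with 0.25 to 0.54 for the first 4 genes and −0.47 to −0.68 for the last 3. Long genes as a whole were low in the first library and high in the second. Of the other long members, Gucy2e (8331 bases) stood at −0.15 and −0.09 in these libraries, and Grk1 (7431 bases) at −0.37 and 0.03. In Abca4Ko replicate 1 the longest class stood 0.23 below the shortest, and the first 4 genes stood at 0.61 to 0.82. The part of length in these values was not tested beyond the alternative below.

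Without control retina replicate 3 the 4 changes were smaller, at 0.50 (Gucy2f), 0.31 (Rgs9bp), 0.3201 (Slc24a1) and 0.23 (Rgs9), each with a limma adjusted p of 0.937. In that fit 1 of 16758 genes tested was called. With each of the 6 libraries left out in turn, the changes ranged from 0.50 to 0.96 (Gucy2f), 0.31 to 0.88 (Rgs9bp), 0.3189 to 0.82 (Slc24a1) and 0.23 to 0.75 (Rgs9). The lowest value of Slc24a1 thus came without another library. With the length trend removed they were 0.4981, 0.46, 0.47 and 0.51, and 0 of 10 genes were called, where 26 of 16220 genes tested were called. Without the library labelled Abca4Ko replicate 3 they were 0.67, 0.51, 0.59 and 0.47, again with no call, where 21 of 16681 genes tested were called.

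**Figure D4:**
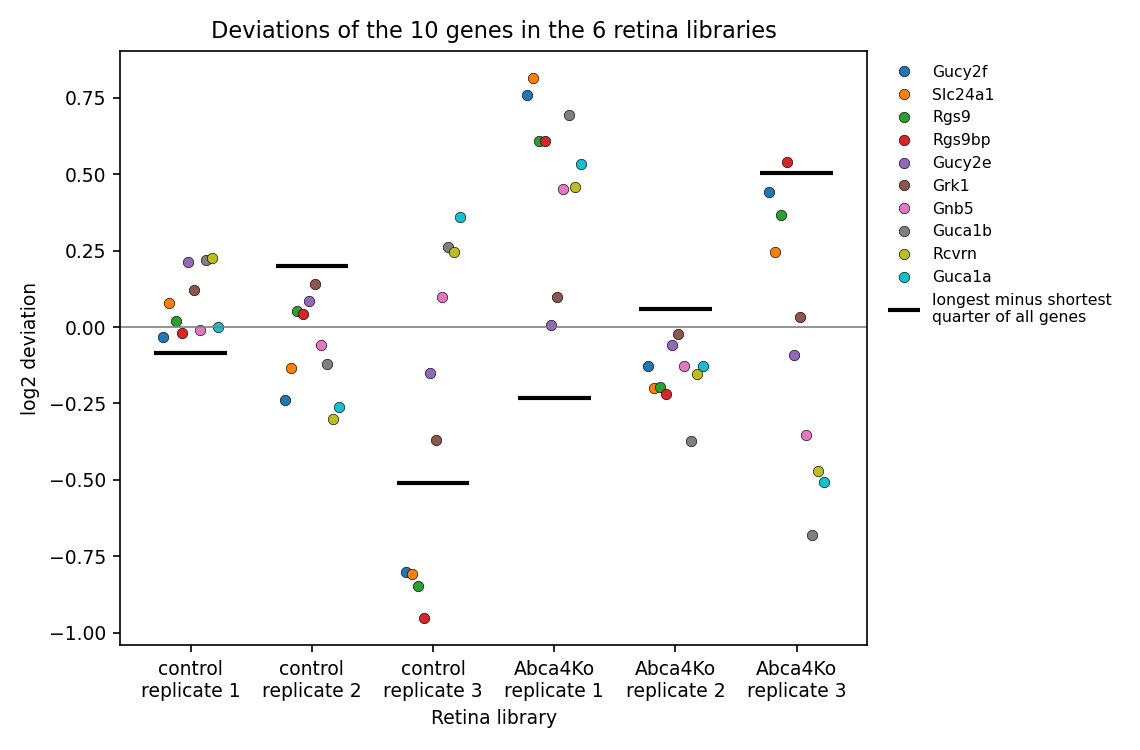
Deviation of each gene from its mean over the 6 retina libraries, log2(CPM + 0.5), by library. Black bars give the longest minus the shortest of 4 length classes of all genes, on the same scale. In control replicate 3 the bar is at −0.51 and Gucy2f, Slc24a1, Rgs9 and Rgs9bp lie between −0.80 and −0.95. In Abca4Ko replicate 3 the bar is at 0.50. In Abca4Ko replicate 1 the bar is at −0.23, and Gucy2f, Slc24a1, Rgs9 and Rgs9bp lie between 0.61 and 0.82.

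The genotype change was last compared between the fractions. For 0 of 10 genes did it differ (interaction in limma over all 12 libraries), where 0.00579% of 17273 genes were called, namely 1 gene, Pcsk6. At an unadjusted p under 0.05 there was 1 of the 10, Gucy2f, against 11.3% of all genes. The largest interaction among the 10 was that of Gucy2f, −0.80 (95% interval −1.45 to −0.15, unadjusted p = 0.0192, limma adjusted p = 0.407), so the Abca4Ko over control change was lower in rod TRAP than in retina. Rgs9, Rgs9bp and Slc24a1 followed at −0.66, −0.61 and −0.59, and the other 6 lay between −0.09 and 0.35. None of these passed. Without control retina replicate 3 the value of Gucy2f was −0.57, and with both libraries labelled Abca4Ko replicate 3 left out it was −0.85.

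**Figure D5:**
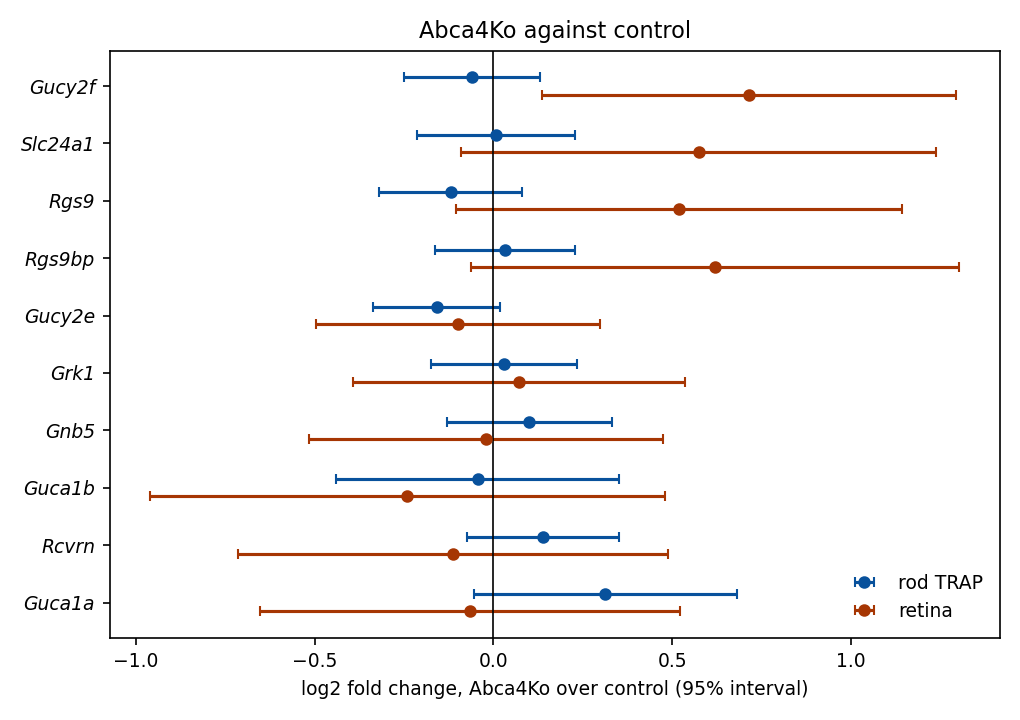
Log2 fold change of each gene, Abca4Ko over control, in rod TRAP and in retina, with 95% intervals from limma. In rod TRAP all 10 intervals cross 0 and the values lie between −0.16 and 0.31. In retina the intervals are wider, and that of Gucy2f (0.14 to 1.29) does not reach 0 although its adjusted p did not pass.

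Spread among libraries differed by gene and fraction. In control retina the SD was 40.5% of the mean TPM for Rgs9bp, 37.9% for Rgs9, 32.7% for Slc24a1 and 29.8% for Gucy2f, but 3.88% for Guca1b. In control rod TRAP the same 4 genes had 4.42%, 7.46%, 5.42% and 3.86%, and Rcvrn had 0.308%. The 4 genes with the largest change between fractions thus had the widest relative spread of the 10 in control retina, with control replicate 3 the lowest library for each. They did not in the other groups. Guca1a had the widest in control rod TRAP, at 8.38%. In Abca4Ko retina Guca1b had the widest, with 1983 ± 648 TPM (SD). Rgs9bp had 244.5 ± 75.8, Rgs9 267.3 ± 62.3, Slc24a1 397.9 ± 88.5 and Gucy2f 23.0 ± 5.80 there. In Abca4Ko rod TRAP Guca1a had the widest, with 4693 ± 1024. Rgs9bp had 544 ± 102 and Gucy2f 148.8 ± 26.9 there.

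To describe which genes ran most alike over the 12 libraries, each gene was centred on its own mean and compared by the root mean square difference in log2(CPM + 0.5), among 11123 genes with a mean of at least 5 CPM. The libraries share fraction and scaling, so a small difference mostly means the same change between the fractions. Among the 10 genes the closest pairs were Grk1 with Gucy2e (0.124), Rgs9 with Slc24a1 (0.143) and Guca1a with Rcvrn (0.152). Over all genes, Rcvrn ran closest to Pde6g, the inhibitory subunit of the rod phosphodiesterase (0.0498). Gucy2e ran closest to Synpo2 (0.0712). Gucy2f ran closest to Hook1 (0.0939), Slc24a1 to Adam9 (0.0940), Rgs9 to Iqcg (0.105), Rgs9bp to Cdk19 (0.0822) and Gnb5 to Gtf2f2 (0.0729). Grk1 ran closest to Rfwd3 (0.0832), Guca1b to Nxnl2 (0.122) and Guca1a to H1f2 (0.118). No nearest gene was one of the 10.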

How the data were processed

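RNA of 12 mouse retina libraries was measured by sequencing, 3 in each group of genotype and fraction as the labels give them. The authors deposited a scaled count per gene, a score made by multiplying the counts of a library by 1 factor and rounding, and TPM. Per the submitters' processing notes, CASAVA 1.8.2, HISAT2, DESeq2, edgeR and the build GRCm39 were used, with no roles given. The counter and annotation are not given in the sources used here. A depth could be determined for some of the retina libraries only, and the number of libraries limits the precision. Whether same-group libraries came from separate animals is not stated in the labels, so p-values measure the spread between these libraries.

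Before testing, TMM factors (trims 0.3 and 0.05) were applied to the scaled counts and log2(CPM + 0.5) was taken. Genes needed 10 or more scaled counts in 3 or more of the libraries compared. The model was limma 3.58.1 under R 4.3.3, with its trend and robust options. P-values, against either side, were adjusted over all genes tested (Benjamini-Hochberg, threshold 0.05). Fold changes on this scale understate low genes. Each 2-group fit used its own 6 libraries, and the interaction all 12. Ratios of TPM were compared by exact permutation in Python, adjusted over 5 ratios. Other steps used numpy and pandas. Fits were tested on simulated data.

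Same-numbered rod TRAP and retina libraries of a genotype tended to deviate together, with r of 0.24 to 0.55 over 6 pairs. Over the 12 pairs with other numbers r was −0.59 to 0.35. These ranges overlap, and Abca4Ko rod TRAP replicate 2 was closer to Abca4Ko retina replicate 3 (0.35) than to replicate 2 (0.27). The numbers were used as pairs across fractions, and the pairing is not settled by these values. Lengths (the longest transcript per symbol) came from GENCODE M21 of GRCm38, another build than the authors', by symbol, and matched 95.8% of genes tested in control. Named genes are the 10 members, members of fixed lists and, by rule, the 3 nearest genes, of which the first is printed. The members and lists were chosen with earlier results of these data known. Alternatives tried were the scaling, the filter, the pseudocount, TPM, each library left out, 1 joint fit, the replicate block and length. Results of the list of activation genes and of the summed rod markers are not reported here.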

Additional observations from a re-analysis of the deposited data

How the results depend on the processing

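All 10 genes kept a higher level in rod TRAP in both genotypes under every alternative run except the scaling of the authors alone, where Guca1a turned to −0.014 in control. No other change between fractions reversed. Of the genotype and interaction values, none of which was called with all libraries, several changed sign. In rod TRAP, Slc24a1 was −0.00214 under the scaling of the authors alone. Grk1, Rgs9bp and Slc24a1 were −0.045, −0.034 and −0.064 with log2(TPM + 1) and again −0.045, −0.034 and −0.064 with log2(TPM + 0.1). With all 12 libraries in 1 fit they were −0.00295, −0.000799 and −0.025. With the length trend removed, an alternative chosen after seeing the data, Gucy2f was 0.00650 in rod TRAP, Grk1 −0.13 and Gnb5 0.035 in retina, and in the interaction Grk1 was 0.13 and Gucy2e 0.14. Without both libraries labelled Abca4Ko replicate 3, the interaction of Gnb5 was −0.043. The cause was not tested.

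Leaving out 1 library at a time, the rod TRAP genotype change ranged from −0.030 to 0.088 for Grk1, −0.035 to 0.095 for Rgs9bp, −0.0096 to 0.16 for Gnb5, −0.29 to 0.091 for Guca1b and −0.089 to 0.054 for Slc24a1. In retina it ranged from −0.089 to 0.16 for Grk1, −0.24 to 0.15 for Gnb5, −0.36 to 0.094 for Rcvrn, −0.34 to 0.17 for Guca1a and −0.64 to 0.039 for Guca1b. The interaction ranged from −0.16 to 0.11 for Grk1, −0.089 to 0.29 for Gnb5, −0.12 to 0.54 for Guca1b and −0.17 to 0.021 for Gucy2e. The number of the 10 genes called by genotype in rod TRAP ranged from 0 to 1, the 1 being Guca1b without Abca4Ko rod TRAP replicate 1.

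The replicate block changed the call of the Rcvrn to Grk1 ratio (−0.39, exact paired p = 0.0312), and of no other ratio or count of the 10 genes. Without 1 library that log2 difference ranged from −0.49 to −0.27, and it passed without Abca4Ko rod TRAP replicate 1 (adjusted p = 0.0455), Abca4Ko retina replicate 3 (0.0346) or control retina replicate 2 (0.0368), by exact permutation. Between genotypes the numbers did not pair the libraries (r of −0.51 to 0.03 for same-numbered libraries of a fraction), and the block gave 46 genes called in retina.

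Over all genes, the 148 called by genotype in rod TRAP became 58 and 40 with log2(TPM + 1) and log2(TPM + 0.1), and 94 in 1 fit. It was 594 without Abca4Ko rod TRAP replicate 1 and 36, 30 and 33 without control rod TRAP replicates 1, 2 and 3. The 18 in retina became 33 without a filter, 9 with at least 50 scaled counts, 38 and 35 with TPM, and 62 in 1 fit. It was 1 without Abca4Ko retina replicate 1 or control retina replicate 3, 4 without Abca4Ko retina replicate 2 and 10 without control retina replicate 1. The interaction count of 1 became 3 with TPM. In Abca4Ko the 10280 genes called between fractions became 6595 without Abca4Ko retina replicate 2. With 3 libraries a group, changes near 0.5 in retina were within the intervals, and the unknown depth of 7 libraries limits what can be said of low genes.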
